A study of Mus musculus with 8 samples.

Results

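The natriuretic peptide genes of the lung were examined in allergen-challenged and untreated mice. The 7 genes are the ligands Nppa, Nppb and Nppc, the receptors Npr1, Npr2 and Npr3, and the protease gene Corin, and they were found on the array through the RefSeq accessions of their probes, 12 probes among 56605 probes and 7 genes among 22907 named genes. Lung RNA of 8 female BALB/c mice was hybridized to 8 single-color arrays, 1 mouse per array and 2 mice per group, on Day 70 of feeding. The mice had been bought at 4 weeks of age and housed for 2 weeks before feeding began. NT mice received standard feed and no allergen. Ctrl-F mice received standard feed, Cap-F mice received feed with carbonate apatite particles that held no oligodeoxynucleotide, and ODNcap-F mice received feed with the same kind of particles carrying the CpG oligodeoxynucleotide MsST. Mice of these 3 groups were sensitized by intraperitoneal ovalbumin (OVA) with aluminum gel on Days 42, 49 and 56 and inhaled OVA from Day 63 to Day 69. No group was given allergen-free particle feed on the arrays, so each comparison with NT holds the allergen, and for Cap-F and ODNcap-F also the feed. The mice of a group are separate animals. The limma p-values below set a group difference against the spread between mice within groups, estimated over all 4 groups and moderated across probes. The genes were chosen on earlier results of these arrays (their log2 values across the 4 groups), so their differences between groups are given as a description, with standard errors and no p, and calls on them are not independent evidence.

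Atrial natriuretic peptide, encoded by Nppa, and B-type natriuretic peptide, encoded by Nppb, are hormones that heart muscle makes and releases, and C-type natriuretic peptide, encoded by Nppc, acts close to the cells that make it. Npr1 and Npr2 encode membrane guanylate cyclases that make cyclic GMP when a peptide binds, Npr1 for the atrial and B-type peptides and Npr2 for the C-type peptide, whereas Npr3 encodes a clearance receptor that takes all of them up. Corin is a membrane protease that cuts the precursor of atrial natriuretic peptide, and cyclic GMP relaxes vascular and airway smooth muscle. Mouse pulmonary veins carry a sleeve of heart muscle, so a lung sample can hold cardiomyocyte RNA.

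The 250 bases before the RefSeq start site are shown for the ligand genes Nppa and Nppb, which neighbor each other on chromosome 4, and for Corin and Npr3, the members that stood farthest from NT upward and downward. Sequences are from RefSeq on build GRCm38.p6 and are written 5′ to 3′ on the strand of the gene, and capitals mark the words TGATAA and AGATAA, which GATA factors bind, and TATAAA, the TATA box. The Nppa window is chr4:148000472-148000721 on the plus strand, the Nppb window chr4:147985650-147985899 on the plus strand, the Corin window chr5:72504541-72504790 on the minus strand and the Npr3 window chr15:11907372-11907621 on the minus strand.
Nppa: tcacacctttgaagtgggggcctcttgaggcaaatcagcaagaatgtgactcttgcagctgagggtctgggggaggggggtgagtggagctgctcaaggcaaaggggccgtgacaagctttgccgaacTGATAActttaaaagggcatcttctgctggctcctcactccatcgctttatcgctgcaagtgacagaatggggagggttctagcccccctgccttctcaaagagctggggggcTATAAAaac
Nppb: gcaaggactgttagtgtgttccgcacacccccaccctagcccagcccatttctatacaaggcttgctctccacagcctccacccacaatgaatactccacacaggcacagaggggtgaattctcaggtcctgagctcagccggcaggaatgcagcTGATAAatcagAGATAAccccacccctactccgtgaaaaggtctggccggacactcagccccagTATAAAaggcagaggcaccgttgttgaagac
Corin: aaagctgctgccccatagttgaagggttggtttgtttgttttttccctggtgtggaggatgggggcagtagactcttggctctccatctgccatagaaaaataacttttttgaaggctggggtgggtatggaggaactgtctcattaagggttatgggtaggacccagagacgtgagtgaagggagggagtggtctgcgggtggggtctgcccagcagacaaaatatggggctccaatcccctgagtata
Npr3: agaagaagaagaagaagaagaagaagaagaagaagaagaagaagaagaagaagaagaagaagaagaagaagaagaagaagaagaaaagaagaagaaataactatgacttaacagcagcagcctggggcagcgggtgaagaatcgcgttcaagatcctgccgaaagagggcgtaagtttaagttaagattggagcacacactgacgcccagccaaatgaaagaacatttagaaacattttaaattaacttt

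Both ligand windows held TGATAA and TATAAA, and the Nppb window also held AGATAA. In Nppa, TGATAA began 122 bases and TATAAA 9 bases before the start site. In Nppb, TGATAA began 95 bases, AGATAA 84 bases and TATAAA 31 bases before it. The Corin and Npr3 windows held none of these words and, like the ligand windows, no STAT word, TTC and GAA parted by 4 bases. On either strand, TGATAA was found in 7.94%, AGATAA in 9.99%, TATAAA in 12.37% and the STAT word in 5.85% of all 32851 windows of this length. A match is a description of these letters only.

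Values are on the log2 scale of the array intensity after quantile normalization over the 8 arrays, and a gene is represented by its brightest probe unless another is named. Of the 7 genes, 6 passed the filter on dim probes (both mice of some group clearly above background), through 10 of the 12 probes. Nppc was not, since its sole probe was not well above background on any of the 8 arrays. The share of probes well above background ran from 61.3% to 65.0% over the arrays. The median difference from NT over all kept probes lay between -0.11 and -0.10, and differences are read against it. The study named 1 of the members, Nppa, from these same arrays.

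**Figure D1:**
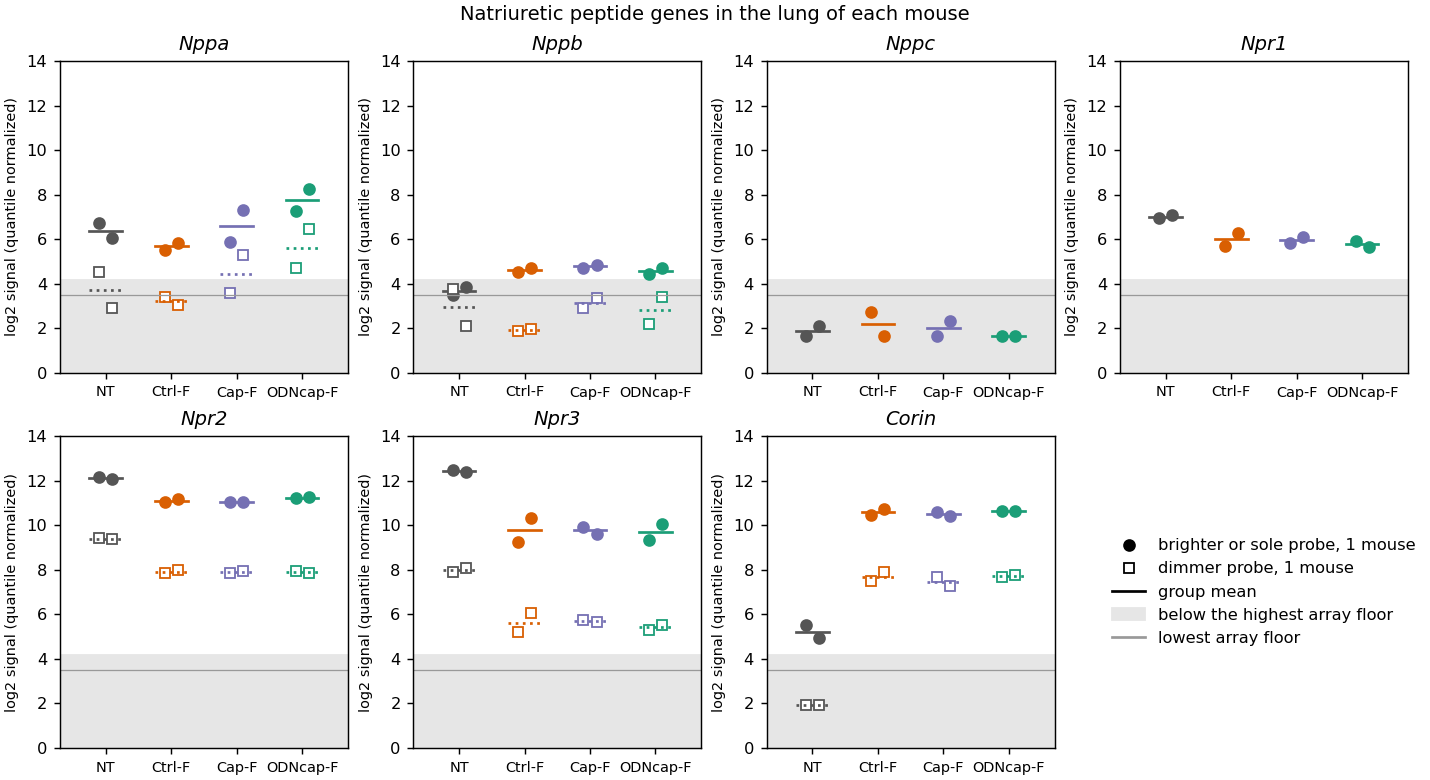
Log2 intensity (y axis) of all 7 members in each mouse, by group (x axis): filled points are the brighter or sole probe and open squares the dimmer probe, horizontal bars are group means, gray shading lies below the highest array floor of 4.18 and the gray line is the lowest, 3.49. By the brighter probe Corin was near 5 in NT and above 10 in all 6 OVA-challenged mice, Npr1, Npr2 and Npr3 were lower in all 6, and Nppa spread most within the Cap-F group, from 5.86 to 7.30.

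Nppa differed among the feeds and within the Cap-F group. Its log2 values were 6.73 and 6.05 in the NT mice, 5.51 and 5.85 with Ctrl-F, 5.86 and 7.30 with Cap-F, and 7.26 and 8.26 with ODNcap-F. Both Ctrl-F mice thus lay below both NT mice and both ODNcap-F mice above them, whereas Cap-F overlapped NT and ODNcap-F. The group means were 6.39 ± 0.48 (SD, n = 2) in NT, 5.68 ± 0.24 (SD, n = 2) with Ctrl-F, 6.58 ± 1.01 (SD, n = 2) in Cap-F and 7.76 ± 0.70 (SD, n = 2) in ODNcap-F. ODNcap-F was 4.22-fold above Ctrl-F, a log2 difference of 2.08 (SE 0.56), which ranked 36th from the top of 28992 genes or unnamed transcripts. It was 2.59-fold above NT (log2 difference 1.37) and 2.26-fold above Cap-F (log2 difference 1.18), the latter ranging from 0.46 without Cap-F mouse 1 to 1.90 without Cap-F mouse 2, with 1.68 and 0.68 when ODNcap-F mouse 1 or 2 was left out. Ctrl-F stood -0.71 and Cap-F 0.19 from NT on the log2 scale. Without Cap-F mouse 2 the Cap-F difference from NT was -0.52, and without Cap-F mouse 1 it was 0.91.

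The other Nppa probe was dimmer and was well above background on 4 arrays, 1 of NT, none of Ctrl-F, 1 of Cap-F and both of ODNcap-F. It read 4.55 and 2.89 in the NT mice, 3.43 and 3.05 with Ctrl-F, 3.60 and 5.30 with Cap-F, and 4.72 and 6.47 with ODNcap-F. Against the background floor of the Ctrl-F arrays, ODNcap-F was at least 3.57-fold higher by this probe. Both probes placed the ODNcap-F mice above the Ctrl-F mice, whereas Ctrl-F overlapped NT by the dimmer probe.

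Nppb was dim and differed from Nppa in its pattern. It read 3.52 and 3.87 in the NT mice, 4.55 and 4.71 with Ctrl-F, 4.72 and 4.84 with Cap-F, and 4.43 and 4.70 with ODNcap-F. All 6 OVA-challenged mice lay above both NT mice, of which 1 was well above background. The log2 differences from NT were 0.94, 1.09 and 0.87 (SE 0.15) for Ctrl-F, Cap-F and ODNcap-F, between 1.83- and 2.13-fold. The other Nppb probe was not well above background on any array. Under normexp background correction the differences of Nppb from NT shrank to 0.26, 0.29 and 0.21.

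The receptor genes were lower in all 6 OVA-challenged mice than in both NT mice. Npr3, the clearance receptor, stood farthest down among the members, with 12.47 and 12.40 in the NT mice, 9.24 and 10.30 with Ctrl-F, 9.90 and 9.63 with Cap-F, and 9.34 and 10.06 with ODNcap-F. The log2 differences from NT were -2.66, -2.67 and -2.74 (SE 0.39), that is 6.34-, 6.37- and 6.68-fold lower. Its other probe gave -2.39, -2.32 and -2.60 (SE 0.27). The 3 OVA groups overlapped for the brighter probe, with log2 differences between feeds from -0.075 to -0.007.

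Npr1 had a sole probe, which read 6.96 and 7.07 in the NT mice, 5.72 and 6.29 with Ctrl-F, 5.84 and 6.09 with Cap-F, and 5.91 and 5.66 with ODNcap-F. It was 2.02-fold below NT under Ctrl-F, 2.07-fold under Cap-F and 2.34-fold under ODNcap-F, log2 differences of -1.01, -1.05 and -1.23 (SE 0.21). The OVA groups overlapped with each other. Npr2 read 12.15 and 12.07 in the NT mice, 11.03 and 11.16 with Ctrl-F, 11.05 and 11.05 with Cap-F, and 11.21 and 11.28 with ODNcap-F. Its log2 differences from NT were -1.01, -1.06 and -0.86 (SE 0.08), and its other probe gave -1.49, -1.50 and -1.50 (SE 0.08). Both ODNcap-F mice lay above the other OVA-challenged mice by the brighter Npr2 probe, by 0.15 over Ctrl-F and 0.20 over Cap-F on the log2 scale, but overlapped them by the other probe.

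Corin stood farthest from NT of all members. It read 5.50 and 4.93 in the NT mice, 10.44 and 10.74 with Ctrl-F, 10.57 and 10.40 with Cap-F, and 10.63 and 10.65 with ODNcap-F. The groups did not overlap with NT, and the log2 differences were 5.37, 5.27 and 5.43 (SE 0.20), or 41.5-, 38.6- and 43.0-fold. They ranked 254th, 260th and 248th from the top of 28992 genes or unnamed transcripts. The other Corin probe was not well above background in NT and was at least 18.4-, 15.6- and 18.9-fold higher in the OVA groups, in the same order. Between the feeds, Corin differed by 0.05 (ODNcap-F over Ctrl-F), 0.16 (ODNcap-F over Cap-F) and -0.10 (Cap-F over Ctrl-F), with the SE of 0.20.

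**Figure D2:**
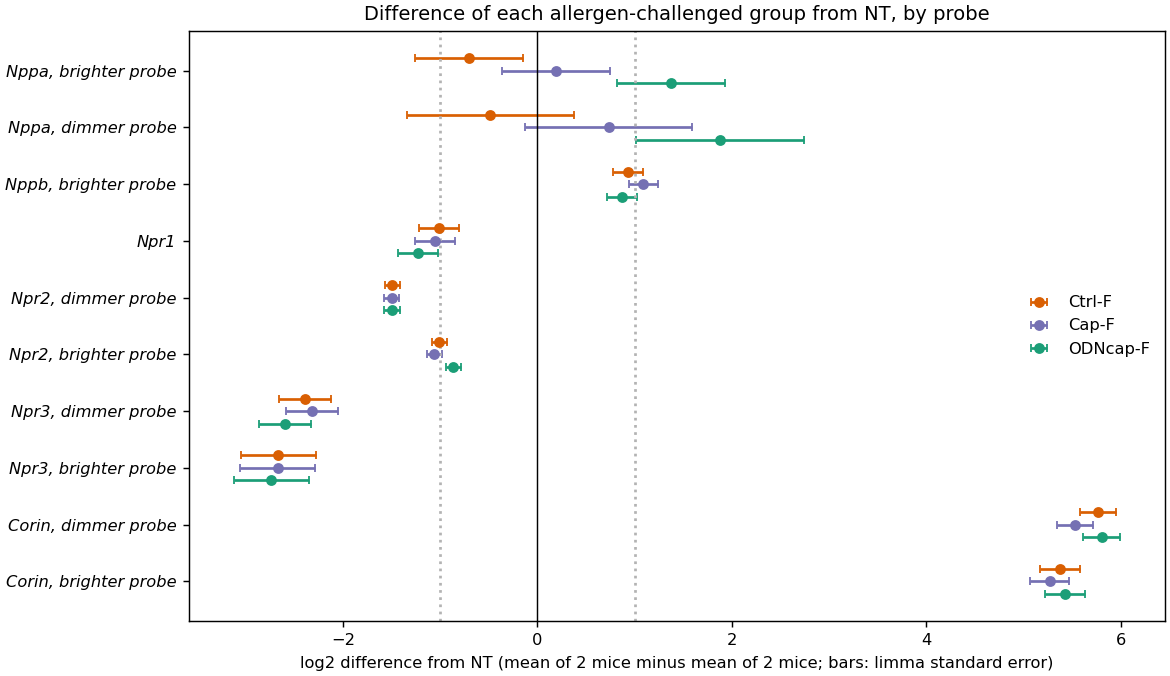
Log2 difference from NT (x axis) of every kept member probe (rows) for Ctrl-F, Cap-F and ODNcap-F, with standard errors from the limma fit as bars and dotted lines at a fold change of 2. Corin lay near 5 and Npr3 near -2.7 in all 3 groups, whereas the Nppa differences ran from -0.71 to 1.37 by the brighter and from -0.48 to 1.88 by the dimmer probe; the dimmer Corin probe was below background in NT, so that its measured difference is no bound.

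By the threshold used across all genes (limma, fold change over 2 and adjusted p under 0.05 by Benjamini-Hochberg), 4 members were called in Ctrl-F against NT (Corin higher; Npr1, Npr2 and Npr3 lower), where 22.8% of all genes were called. In Cap-F against NT 5 were called, with Nppb added, where 19.6% of all genes were called. In ODNcap-F against NT 3 were called (Corin, Npr1 and Npr3), where 20.7% of all genes were called, and Npr2 there was under the fold threshold by its brighter probe but called by the other, and by the mean of both. The 3 comparisons share the NT arrays, and the members were picked with these values known, so nothing is read from the counts. Among the feeds no member was called by limma. In ODNcap-F against Ctrl-F, 0.0% of all genes were called, with 0.655% at an unadjusted p under 0.05, and 1 member, Nppa, was among the latter. In ODNcap-F against Cap-F and in Cap-F against Ctrl-F, 0.00345% of all genes were called in each, and no member was among the 0.642% and 0.98% at an unadjusted p. In ODNcap-F against NT, Nppa was not called by limma but was called in 5 of 19 alternatives, the local-pooled-error test, the unadjusted p, the intensity trend and without either Cap-F array. The local-pooled-error test also called Nppa in ODNcap-F against Ctrl-F and against Cap-F, where it called 0.452% and 0.355% of all genes, and no member in Cap-F against Ctrl-F, where it called 0.486%. Groups of 2 mice often fail to overlap. Against NT, 6 of 6 members did not overlap under Ctrl-F, 5 under Cap-F and 6 under ODNcap-F, beside 84.0%, 82.1% and 82.3% of all genes. Between feeds, 2 members did not overlap in ODNcap-F against Ctrl-F, 3 in ODNcap-F against Cap-F and 2 in Cap-F against Ctrl-F, beside 35.6%, 45.7% and 51.7% of all genes.

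The mean levels of heart muscle marker lists varied alongside Nppa. The mean log2 level of 4 atrial cardiomyocyte genes (Myl7, Myl4, Sln and Gja5; Bmp10 was not well above background) was 11.85 and 11.09 in the NT mice, 9.0 and 9.50 with Ctrl-F, 8.67 and 10.83 with Cap-F, and 10.67 and 11.16 with ODNcap-F. The mean of 11 cardiomyocyte genes was 9.35 and 8.44 in the NT mice, 6.28 and 6.93 with Ctrl-F, 6.40 and 8.46 with Cap-F, and 8.05 and 8.64 with ODNcap-F. Of the 11, limma called 8 lower in Ctrl-F against NT, 1 with Cap-F and 1 with ODNcap-F, beside 22.8%, 19.6% and 20.7% of all genes in either direction. The local-pooled-error test called 10, 8 and 2 of the 11 and an unadjusted p 8, 3 and 1. The medians of the 11 genes were -2.62, -1.60 and -0.63, and Tnnt2, cardiac troponin T, fell by 3.07 on the log2 scale in Ctrl-F (limma adjusted p = 0.0325). Actc1 was the 1 gene of the 11 above NT in each OVA group, by 0.15, 0.44 and 0.33, and was not called. Ryr2 differed by -1.06, -0.57 and -1.01 and was called in Ctrl-F and ODNcap-F. Cap-F mouse 1, with the lower Nppa value of its group, also had the lower heart muscle level. The study named 3 of the 5 atrial and 6 of the 11 cardiomyocyte genes from these arrays, so their direction is not independent evidence. Of 4 ventricular genes, Myl2 and Irx4 were not well above background. Myh7, with an NT mean of 13.20, differed from NT by -1.75, -1.56 and -1.56 and was called lower in each OVA group. Unlike the heart muscle means above, it differed little between feeds, by 0.20 for ODNcap-F over Ctrl-F. Myl3, with an NT mean of 7.27, differed from NT by -3.34, -2.38 and -0.84 and was not called.

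The size of the Nppa difference from NT was not that of the heart muscle genes, whereas between feeds it lay near their list medians. In ODNcap-F against Ctrl-F, Nppa differed by 2.08, beside medians of 1.935 (atrial) and 1.772 (cardiomyocyte). In ODNcap-F against Cap-F it differed by 1.18, beside 1.126 and 1.234, and in Cap-F against Ctrl-F by 0.90, beside 0.623 and 1.058. Relative to the NT mean, Nppa stood at -0.88 and -0.54 with Ctrl-F, -0.52 and 0.91 with Cap-F, and 0.87 and 1.87 with ODNcap-F, and the atrial mean at -2.47 and -1.96, -2.80 and -0.63, and -0.80 and -0.30. In all 6 OVA-challenged mice Nppa therefore stood above the atrial mean when each was set to its NT mean, with mean gaps of 1.51, 1.91 and 1.92 on the log2 scale for Ctrl-F, Cap-F and ODNcap-F, a comparison chosen after the data had been seen. The atrial mean includes Gja5, which differed from NT by -0.75, -1.20 and -0.88 and read 10.10 and 10.01 in the Cap-F mice. In ODNcap-F against Ctrl-F Gja5 differed by -0.13, beside 2.85 for Myl7, 2.92 for Sln and 1.02 for Myl4. The gaps were not computed without Gja5. In a bulk sample, fewer cells of a type and less RNA per cell cannot be told apart. What part the amount of heart muscle in a sample had in the Nppa values was not tested.

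**Figure D3:**
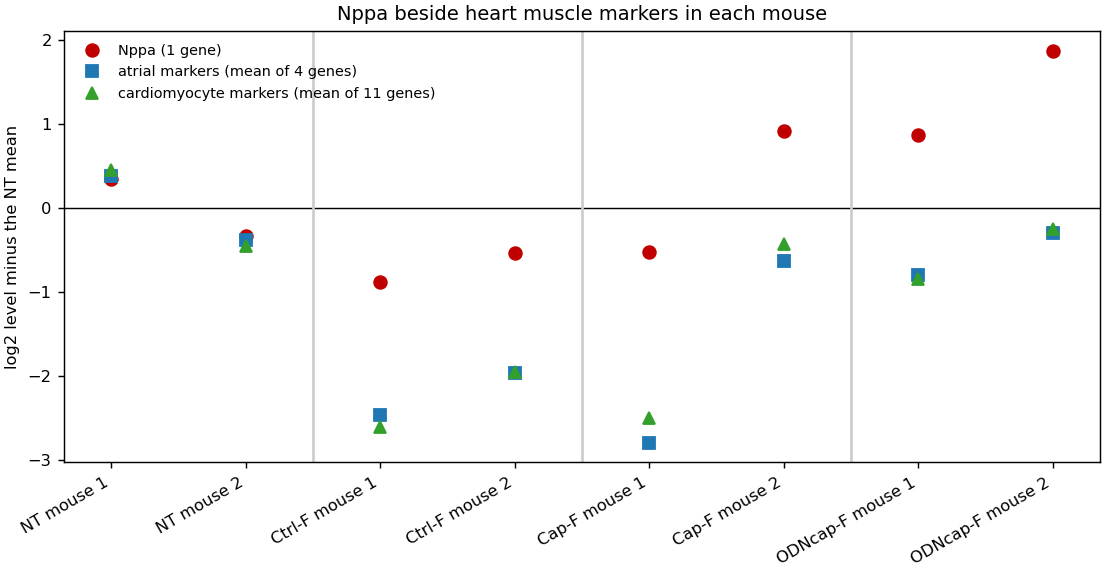
Log2 difference from the NT mean (y axis) of Nppa (circles), the mean of 4 atrial markers (squares) and the mean of 11 cardiomyocyte markers (triangles) in each of the 8 mice (x axis). Heart muscle markers were lowest in Cap-F mouse 1 and the Ctrl-F mice, where Nppa was also below NT, and Nppa lay above the heart muscle markers in all 6 OVA-challenged mice.

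Endothelial genes were lower alongside the receptors. Of 10 endothelial markers, limma called 8 lower in each OVA group against NT, with list medians of -1.24, -1.20 and -1.17 against -0.12, -0.11 and -0.12 over all genes. Cdh5, a junction protein of endothelium, fell by 1.20, 1.23 and 1.18 on the log2 scale (limma adjusted p = 0.000195, 0.000214 and 0.000236). The mean endothelial level was 12.56 in NT and 11.34, 11.33 and 11.42 in the OVA groups, in the same order. Of 6 leukocyte markers, 2, 4 and 2 were called higher, and of 5 alveolar type 1 markers, 3 were called lower in each group. The part of a change in cell makeup in the receptor values was not tested. Marker lists of other cells were also measured against NT, in the order Ctrl-F, Cap-F, ODNcap-F. Smooth muscle and pericyte genes were called lower in 3, 0 and 2 of 9, with list medians of -0.36, -0.18 and -0.20. Fibroblast genes were called lower in 4, 3 and 2 of 7 with 1 called higher in each. Mesothelial genes were called lower in 2, 3 and 2 of 4. Over all genes, limma called 22.8%, 19.6% and 20.7% in these comparisons, in either direction. Of 4 airway epithelial genes 2 were called higher in each group, among them Muc5ac, the goblet cell mucin. Of 4 alveolar type 2 genes 0 were called, with a mean level of 15.95 in NT and 15.60, 15.57 and 15.59 in the OVA groups. Sftpc read 17.60 or 17.64 on every array, near the top of the scale, so it could add little to a change of this mean. The other 3 lay below NT in each group, and the other Sftpb probe differed by -1.61 in Ctrl-F.

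The other genes of cyclic GMP signaling were taken from a list of 23. Of these 22 were measured, and Ostn, another ligand of the clearance receptor, was not well above background. The list was chosen with earlier results of these data known, so its counts and p-values are not independent evidence. In Ctrl-F against NT, limma called 2 higher and 10 lower, in Cap-F 2 and 7, and in ODNcap-F 2 and 9. The list medians were -0.66, -0.64 and -0.62, against -0.12, -0.11 and -0.12 over all genes, and the same 22.8%, 19.6% and 20.7% of all genes were called. Among the feeds, limma called 0 of the 22 in each of the 3 comparisons, with 0 at an unadjusted p and 0 by the local-pooled-error test.

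The subunits of soluble guanylate cyclase, which makes cyclic GMP in response to nitric oxide, fell. Gucy1a2 fell by 1.52, 1.31 and 1.29 on the log2 scale in the OVA groups, in the same order (limma adjusted p = 0.000164, 0.000328 and 0.000321). Gucy1b1 fell by 1.15, 1.07 and 1.10 (limma adjusted p = 0.000887, 0.00134 and 0.00113). Gucy1a1 fell by 1.01 in Ctrl-F and 1.03 in ODNcap-F (limma adjusted p = 0.0014 and 0.00135), and differed by -0.99 in Cap-F, under the fold threshold.

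The cyclic GMP-dependent kinases fell as well. Prkg2 fell by 2.29, 1.95 and 1.93 (limma adjusted p = 4.19e-05, 8.12e-05 and 8.14e-05), with log2 values of 9.66 and 9.95 in NT and between 7.46 and 7.93 in the OVA-challenged mice. Prkg1 fell by 1.38, 1.44 and 1.34 (limma adjusted p = 0.00494, 0.00458 and 0.00587). Kcnma1, a potassium channel, was well above background only in NT by its brightest probe, which was at least 1.46-fold lower in Ctrl-F (limma adjusted p = 0.0478). Its bound is under the fold threshold, and it was called in 7 of 17 alternatives. The call was lost without Ctrl-F mouse 1, which read 1.63 beside 3.66 in mouse 2. It was likewise lost whichever array of NT, Cap-F or ODNcap-F was left out. Vasp, a kinase substrate, stood 0.73, 0.77 and 0.71 above NT, under the fold threshold.

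Of the phosphodiesterases, which break cyclic nucleotides down, Pde3a fell by 1.48, 1.35 and 1.29 (limma adjusted p = 0.000721, 0.00118 and 0.00132). Pde9a fell by 1.10 in Ctrl-F and 1.06 in ODNcap-F (limma adjusted p = 0.00121 and 0.00151), and differed by -0.96 in Cap-F, under the fold threshold. Pde3b stood 0.89, 0.87 and 0.83 above NT and Pde5a -0.31, -0.43 and -0.36 from it, under the fold threshold. Members of this enzyme family thus lay on both sides of NT.

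For the enzymes that process and degrade the peptides, Pcsk6, a proprotein convertase, fell by 1.84, 1.84 and 1.50 (limma adjusted p = 0.000122, 0.000145 and 0.000275). Mme, which encodes neprilysin, the enzyme that degrades natriuretic peptides, fell by 1.67, 1.64 and 1.59 (limma adjusted p = 0.000429, 0.000543 and 0.000573). Furin, another convertase, differed by -0.02 in Ctrl-F and was not called.

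The list members that rose were the guanylins, peptides that act on the guanylate cyclase of the gut and were listed as neighbors of the pathway. Guca2a read 4.92 and 4.84 in the NT mice, 10.17 and 10.66 with Ctrl-F, 9.88 and 9.50 with Cap-F, and 10.22 and 10.18 with ODNcap-F, a rise of 5.53, 4.81 and 5.32 (limma adjusted p = 1.31e-05, 2.29e-05 and 1.61e-05). Guca2b was not well above background in NT and was at least 11.3-, 9.99- and 10.3-fold higher (limma adjusted p = 3.55e-05, 4.64e-05 and 4.27e-05). The OVA groups lay far from NT and close to each other for both.

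**Figure D4:**
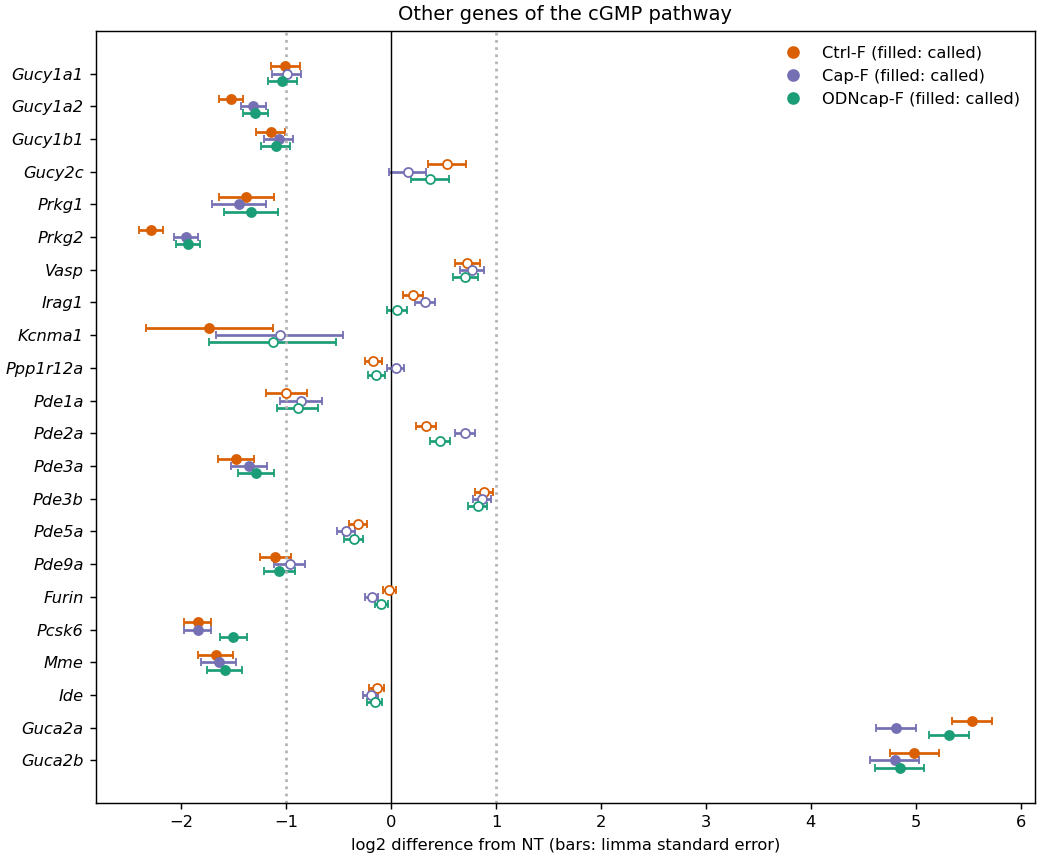
Log2 difference from NT (x axis) of the 22 measured genes of cyclic GMP signaling (rows) in the 3 OVA groups, with limma standard errors as bars, filled points for called and open points for uncalled genes, and dotted lines at a fold change of 2. Guca2a and Guca2b lay near 5, Prkg2 near -2, and most other genes between -2 and 1; Guca2b in NT and Kcnma1 outside NT were below background, so that their measured differences are no bounds.

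Genes with the most similar profile were sought among 16564 named genes, by the root-mean-square difference of log2 values over the 8 arrays after each profile was centered on its own mean. For Corin these were Sox9 (0.134), Gm5547 (0.159) and Tnfrsf9 (0.162). Sox9 read 3.03 and 2.0 in the NT mice, below the floors of these arrays, so its distance rests on values below background. Of these genes Tnfrsf9 had means of 4.97 in NT and 10.44, 10.01 and 10.47 in the OVA groups. For Npr3 they were E030013I19Rik (0.257), Tmem100 (0.264) and Tns2 (0.267), and Tmem100 had means of 12.75 in NT and 10.21, 10.33 and 10.56. For Npr1 they were Plekhd1os (0.102), 9930012K11Rik (0.106) and the endothelial receptor gene Tie1 (0.108). For Npr2 they were Aatk (0.027), Cracr2b (0.038) and Fstl3 (0.043). For Nppa the closest were Grin3b (0.425), Fbxw15 (0.473) and Enpp3 (0.481), all dim, with larger differences than those found for the other members. The points share arrays and groups, and the likeness is a description.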

How the data were processed

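Lung RNA of 8 mice was labeled and hybridized to Agilent SurePrint G3 Mouse arrays, read with Agilent Feature Extraction 11.0. The authors deposited for each spot a background-subtracted, spatially detrended intensity, not normalized between arrays, and a table on the log2 scale after quantile normalization, filtered in a way the methods do not describe. Without control spots, 59305 spots per array remained, and 792 spot values that the software marked as outliers were dropped. Log2 values were averaged per probe and quantile normalized. A probe was kept if both mice of any group were clearly above background by the software's flag (37117 probes). The lowest log2 value well above background per array, between 3.49 and 4.18, served as the floor for fold changes written "at least". The number of arrays limits the precision.

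The 4 groups were fitted together with limma 3.58.1 in R 4.3.3, with 4 residual degrees of freedom, and a call required a fold change over 2 and an adjusted p under 0.05 (Benjamini-Hochberg over all kept probes). The probe with the highest mean signal stands for a gene. The study's methods used the local-pooled-error test, which was rebuilt here as an alternative. Tested on simulated data for Ctrl-F against NT (37117 probes), 192 of 200 changed probes were recovered by limma, beside 4 false calls. The local-pooled-error test recovered 197, beside 46. The 200 probes were shifted by 2 to 5 on the log2 scale. Recovery of smaller differences, such as those of Npr1, Npr2 and Nppb from NT, was not tested. The members, the lists and the promoter words were chosen with earlier results of these data known. Named were all members, the cyclic GMP genes called against NT and at most 4 others. Per marker list at most 3 genes were named, except that all atrial and ventricular markers were named. The atrial and ventricular markers, Actc1 and Ryr2 were named after their values were seen. The 3 most similar genes were named for members well above background on all arrays whose group means spread by over 1 in log2. All members but Nppb and Nppc met this. Probe names came from RefSeq accessions, which named 32989 of 56605 probes. Alternatives were 75th percentile scaling, normexp background with an offset of 50, the deposited table, both filters, an intensity trend, the replicate number as a block, fits of 2 groups, each array left out, the mean of a gene's probes and an unadjusted p. Quantitative PCR, histology and fecal data were not analysed here.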

Additional observations from a re-analysis of the deposited data

Results flagged for a closer look

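By its brighter probe, Nppa lay on opposite sides of NT in different OVA groups. Both Ctrl-F mice were below both NT mice and both ODNcap-F mice were above both of them, and the means of ODNcap-F and Ctrl-F were 2.08 apart on the log2 scale. By the dimmer probe Ctrl-F overlapped NT, and Ctrl-F against NT was called in 0 of 19 alternatives. The difference between ODNcap-F and Ctrl-F was not called by limma and was called by the local-pooled-error test and at an unadjusted p, on the values for which the gene had been picked.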

How the results depend on the processing

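Under normexp background correction 2 members were called in Ctrl-F against NT and 3 in Cap-F against NT, in place of 4 and 5. With 75th percentile scaling Npr2 was no longer called in Ctrl-F (-0.93), nor Nppb in Cap-F (0.97), and with the deposited table Npr1 was no longer called in Ctrl-F (-0.97), these being under the fold threshold. Nppb was not tested with the deposited table. For normexp the cause was not tested. The local-pooled-error test called 1 member in ODNcap-F against Ctrl-F and 1 in ODNcap-F against Cap-F, and an unadjusted p called 1 in ODNcap-F against Ctrl-F, in place of 0 in each. With each array left out in turn, the members called against NT numbered 3 to 4 in Ctrl-F, 4 to 5 in Cap-F and 3 to 4 in ODNcap-F, and the cyclic GMP genes 8 to 13, 8 to 11 and 9 to 12. The 8 in Ctrl-F were found without Ctrl-F mouse 1, against 12 with all arrays. With an array left out, the remaining mouse took its spread from the other arrays. The replicate numbers of the labels did not pair the mice (correlations of deviations from -0.012 to 0.161), and with the number as a replicate block 4, 5 and 3 members and 12, 9 and 11 cyclic GMP genes were called against NT, as without it. The Nppa difference of Cap-F from NT kept its sign in 12 of 14 alternatives, from -0.52 to 0.91, and that of ODNcap-F from Ctrl-F in 14 of 14, from 1.31 to 2.58. On the slide, row 1 held NT with Ctrl-F and row 2 held both particle feeds, so a row effect and particle feed cannot be told apart. Signals near the floor limit Nppb and the dimmer Nppa probe.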
